A study of Rattus norvegicus with 20 samples.

Results

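The genes described here encode the protein parts of ribosomes, namely 42 genes of the cytosolic ribosome (29 of its large subunit, 13 of its small) and 71 of the mitochondrial ribosome (45 large, 26 small). They were taken by name: a gene symbol of Rpl or Rps followed by a digit placed a gene in the cytosolic set, and Mrpl or Mrps followed by a digit in the mitochondrial set, with Rps6k kinase genes left out. These 113 genes, of 10411 genes with a single symbol on the array, were read by 128 probe sets, with the brightest probe set on average taken for each gene. Of the 113, 111 had enough signal to be tested; the exceptions were Rpl30, with a mean signal of 11.4, and Rpl3l, with 4.54. The naming rule also took in 4 ribosomal protein-like genes (Rpl3l, Rpl7l1, Rps27l and Rps4y2).

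Each ribosome is a machine of RNA and protein with a small subunit that reads the messenger RNA and a large subunit that joins amino acids. The cytosolic ribosome makes nearly all proteins of a cell, and its proteins are translated from messengers that begin with a run of pyrimidines, the terminal oligopyrimidine (TOP) tract, through which nutrient signals control their translation. The mitochondrial ribosome makes the few respiratory chain subunits encoded in mitochondrial DNA, and its own proteins come from nuclear genes. Ribosomes take up a large part of a cell's building work, which is why their genes are of interest where food is short.

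The tissue was visceral white fat of male rats of the outbred Wistar strain, fed the AIN-93G diet from 6 weeks of age. For 1 week or 1 month the rats received all of their recorded intake (control) or 5%, 10%, 20% or 30% less, and they were fasted for 16 h before sampling. Each of the 10 groups was hybridised as a single pool of 5 rats, split over 2 chips. A group was therefore 1 pool, the chips of a pool were technical repeats, and each p-value measures the spread between pools. In this bulk tissue, fewer cells of a type and less RNA per cell cannot be told apart.

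The median SD between the chips of a pool was 0.105 on the log2 scale for cytosolic members, 0.136 for mitochondrial members and 0.186 for all 9520 tested probe sets. Adipocyte markers were present in every pool, with 9 of the 12 listed measured and a mean log2 signal between 9.62 and 10.39. Genes of the exocrine pancreas, a neighbouring organ, averaged 2.39 to 2.82 in 8 pools, but 11.95 (log2 signal) in the 1-week control pool and 6.25 in the 1-week 30% pool. Lymphocyte, macrophage and adipocyte markers also moved between control and restricted pools, and their values are given beside the results. The log2 ratio of 3′ to 5′ signal, a sign of RNA quality, ranged from 0.070 to 0.22 for GAPDH over the pools. For beta-actin it was 0.59 in the control pool and 0.63 to 0.70 in the restricted pools at 1 week, and 0.60 against 0.72 to 0.86 at 1 month, so that 8 of 8 restricted pools lay above their control. Its part in the results was not tested.

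The starts of a few of these genes are shown because the TOP tract lies there. RefSeq promoters (GRCr8 assembly, 1 per gene, 250 bases before to 50 after the annotated start) were matched to 92 members, 35 cytosolic and 57 mitochondrial. The stretches below run from 50 bases before to 20 after the start. Rps15 lies at chr7:10068096-10068165 (minus strand), Rpl35a at chr11:81235002-81235071 (minus), Rps23 at chr2:23814467-23814536 (plus), Rpl39 at chrX:121195877-121195946 (minus), Mrps7 at chr10:101342592-101342661 (plus) and Mrps9 at chr9:52605628-52605697 (plus). Capitals mark a match to CTTTT or CTTTC near the start, to the ETS motif CCGGAAG or to the YY1 motif AAGATGGC, the last pair on either strand.
Rps15: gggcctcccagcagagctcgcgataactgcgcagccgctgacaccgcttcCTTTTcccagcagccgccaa
Rpl35a: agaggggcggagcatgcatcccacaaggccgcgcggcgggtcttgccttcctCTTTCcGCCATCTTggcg
Rps23: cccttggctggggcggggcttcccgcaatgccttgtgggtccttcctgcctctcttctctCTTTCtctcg
Rpl39: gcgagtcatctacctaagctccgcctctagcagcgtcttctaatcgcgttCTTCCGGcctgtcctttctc
Mrps7: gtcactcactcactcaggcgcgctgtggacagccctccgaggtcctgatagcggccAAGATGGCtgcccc
Mrps9: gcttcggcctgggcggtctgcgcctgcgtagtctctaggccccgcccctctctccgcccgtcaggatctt

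The letters CTTTT or CTTTC, on the sense strand within 10 bases before to 15 after the start, stood in 16 of 35 cytosolic promoters (45.7%), in 3 of 57 mitochondrial ones (5.26%) and in 5.12% of all 27457 promoters. CCGGAAG, on either strand of the 300 bases, stood in 25.7% of cytosolic, 33.3% of mitochondrial and 9.22% of all promoters. AAGATGGC stood in 11.4%, 24.6% and 3.44%. A match is a description of the letters and no proof of a binding site. Among tested cytosolic members, those with the TOP-like letters had a median slope against restriction of -0.074 (n = 16) and those without them -0.067 (n = 18), on the log2 scale per 10% of restriction.

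In 7 of the 8 restricted pools the median cytosolic member had less signal than in the control pool of its duration. At 1 week the median difference in log2 signal was -0.29 at 5% restriction, -0.44 at 10%, -0.26 at 20% and -0.39 at 30%, and 40, 39, 40 and 40 of the 40 tested members were lower. At 1 month it was 0.0050 at 5%, -0.29 at 10%, -0.36 at 20% and -0.098 at 30%, with 19, 37, 40 and 33 members lower. Over all tested probe sets the medians lay between -0.063 and 0.039, with 45.9%, 45.7%, 50.9% and 51.2% lower at 1 week and 52.5%, 56.0%, 54.1% and 55.7% at 1 month. The deepest cytosolic values were thus not in the most restricted pools: 27 of the 40 members were lowest in the 10% pool at 1 week, and 28 were highest in the 5% pool at 1 month.

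**Figure D1:**
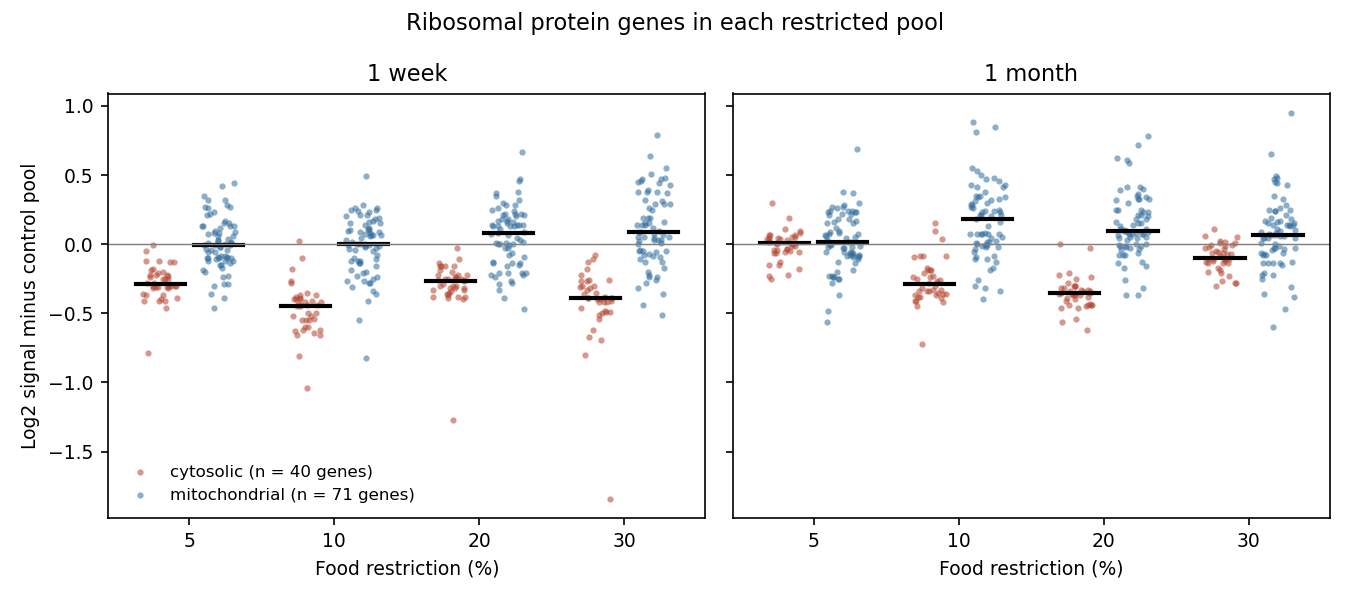
Difference in log2 signal between each restricted pool and the control pool of the same duration (vertical axis) by food restriction in percent (horizontal axis), at 1 week (left) and 1 month (right). Each point is 1 gene, red for the 40 cytosolic and blue for the 71 mitochondrial members, and black bars are medians; the red bars run from -0.44 to 0.0050 and the blue ones from -0.0067 to 0.18.

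Both chips of a pool gave the same sign of the cytosolic median in 7 of 8 pools. At 1 week chip 1 gave -0.35, -0.52, -0.39 and -0.51 from 5% to 30% restriction, and chip 2 gave -0.23, -0.44, -0.15 and -0.28. At 1 month the values were 0.0037, -0.30, -0.39 and -0.074 on chip 1 and -0.039, -0.21, -0.36 and -0.15 on chip 2. The exception was thus the 5% pool at 1 month, where the median was near 0 on each chip.

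Mitochondrial members stood about level with the control or a little above it. Their median difference in log2 signal was -0.0067, 0.0023, 0.078 and 0.089 from 5% to 30% at 1 week, and 0.013, 0.18, 0.092 and 0.069 at 1 month. They were also more spread: their interquartile range was between 0.24 and 0.36 in the 8 pools, against 0.10 to 0.18 for the cytosolic set. The mitochondrial member of largest gain was Mrps7 in all 4 pools at 1 week (0.44 to 0.79) and Mrpl1 in 3 of 4 at 1 month, with Mrps31 (0.88) in the 10% pool.

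The mean change of the cytosolic set minus that of the mitochondrial set was negative in 8 of 8 pools. It was -0.28, -0.45, -0.35 and -0.53 from 5% to 30% restriction at 1 week, and -0.036, -0.44, -0.49 and -0.17 at 1 month. The mean over the 8 pools was -0.34 ± 0.17 (SD), a description with no test because the 4 pools of a duration share their control. At 30% the gap was wider at 1 week than at 1 month, while at 10% the values of both durations were nearly equal.

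Outside the 10% pool at 1 week, few members moved far. A probe set was counted where its pool difference was at least 1.5-fold and the 4 chip-to-chip differences had one sign. Lower by this rule at 1 week were 1, 10, 1 and 5 of the 40 cytosolic members from 5% to 30% restriction, beside 3.68%, 6.41%, 7.90% and 10.7% of all tested probe sets, and none was higher (3.24%, 5.55%, 5.68% and 7.58% of all). At 1 month 0, 1, 1 and 0 were lower (3.25%, 13.4%, 10.1% and 7.84% of all) and 0 higher (2.43%, 6.22%, 6.22% and 5.33%). The 10 in the 10% pool at 1 week included Rpl37a (-0.81), Rpl11 (-0.66), Rpl35a (-0.66), Rpl4 (-0.63) and Rps15 (-0.62). Of the 71 mitochondrial members, 0, 0, 1 and 1 were higher at 1 week and 1, 3, 5 and 2 at 1 month. Lower by this rule were Mrps27 in the 10% pool at 1 week and Mrps14 in the 30% pool at 1 month, and no other mitochondrial member in any pool.

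Some members kept one direction throughout. Lower in all 8 restricted pools were 15 of 40 cytosolic members (37.5%) and 4 of 71 mitochondrial ones (5.63%), beside 14.8% of all tested probe sets. Higher in all 8 were 0 cytosolic and 18 mitochondrial members (25.4%), beside 15.1% of all. The 4 mitochondrial members lower in every pool were Mrpl23, Mrps14, Mrps33 and Mrps34, named after their values were seen.

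The 8 restricted pools together were then compared with the 2 control pools. The estimate was below 0 for 40 of 40 cytosolic members, beside 53.2% of all tested probe sets, with a median of -0.27 in log2 signal, or 16.8% less signal, beside -0.026 for all. At an unadjusted p under 0.05, 27 of 40 were lower (67.5%, against 14.4% of all tested probe sets), and 2 of 40 fell past limma's adjusted p of 0.05 (1.60% of all). The mitochondrial median was 0.067, 30 of 71 lay below 0, and 1 rose past the adjusted threshold (4.34% of all). Centring each chip on its median moved the median of all probe sets from -0.026 to 0.091, and relative to that median the cytosolic set stood at -0.24 under either scaling, and at -0.18 after quantile normalization. With chips centred, the cytosolic median was -0.15, with 39 of 40 below 0 (36.9% of all), and 2 of 40 were lower at an unadjusted p under 0.05 (7.96% of all) in place of 27. The mitochondrial median was then 0.18, with 11 of 71 below 0 and 20 higher at an unadjusted p under 0.05 (20.7% of all). That centring also moved the calls over all probe sets from 413 higher and 152 lower to 398 and 71.

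The pair that fell were Rpl23a and Rpl24, both of the large subunit, where Rpl23a sits at the exit of the tunnel for new protein. Rpl23a (probe set 1371313_at) had a log2 signal of 10.92, 10.62, 10.51, 10.59 and 10.53 from control to 30% restriction at 1 week, and 10.96, 10.73, 10.54, 10.61 and 10.84 at 1 month. Rpl24 (1398854_at) had 10.55, 10.25, 10.15, 10.15 and 10.13 at 1 week, and 10.75, 10.50, 10.34, 10.21 and 10.55 at 1 month. For Rpl23a the control pools were the 2 highest of 10; for Rpl24 the 30% pool at 1 month reached the level of the control pool at 1 week. The difference was -0.32 ± 0.085 (SE) for Rpl23a (limma adjusted p = 0.0496) and -0.36 ± 0.091 for Rpl24 (limma adjusted p = 0.0417), each lower in 8 of 8 pools. Both sit close to the threshold: the count of 2 became 21 without the 5% pool at 1 month, where 966 of all 9520 probe sets passed as lower in place of 152, and 0 without any 1 of the control, 10% or 20% pools of either duration or the 30% pool at 1 week.

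Mrps7, a small subunit protein that binds the mitochondrial ribosomal RNA, was the mitochondrial member that rose. Its probe set (1373929_at) had a log2 signal of 8.65, 9.09, 9.14, 9.33 and 9.45 from control to 30% at 1 week and 9.28, 9.54, 9.76, 9.88 and 9.75 at 1 month. At each duration the control pool was the lowest, and at 1 week the signal was higher at each further level of restriction. The difference was 0.53 ± 0.11 (SE; limma adjusted p = 0.0242), higher in 8 of 8 pools. The count of 1 mitochondrial member became 0 without the 20% pool at 1 week or without either control pool, 2 without the 5% pool at 1 week and 9 without the 5% pool at 1 month, where 1014 of all 9520 passed as higher in place of 413.

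**Figure D2:**
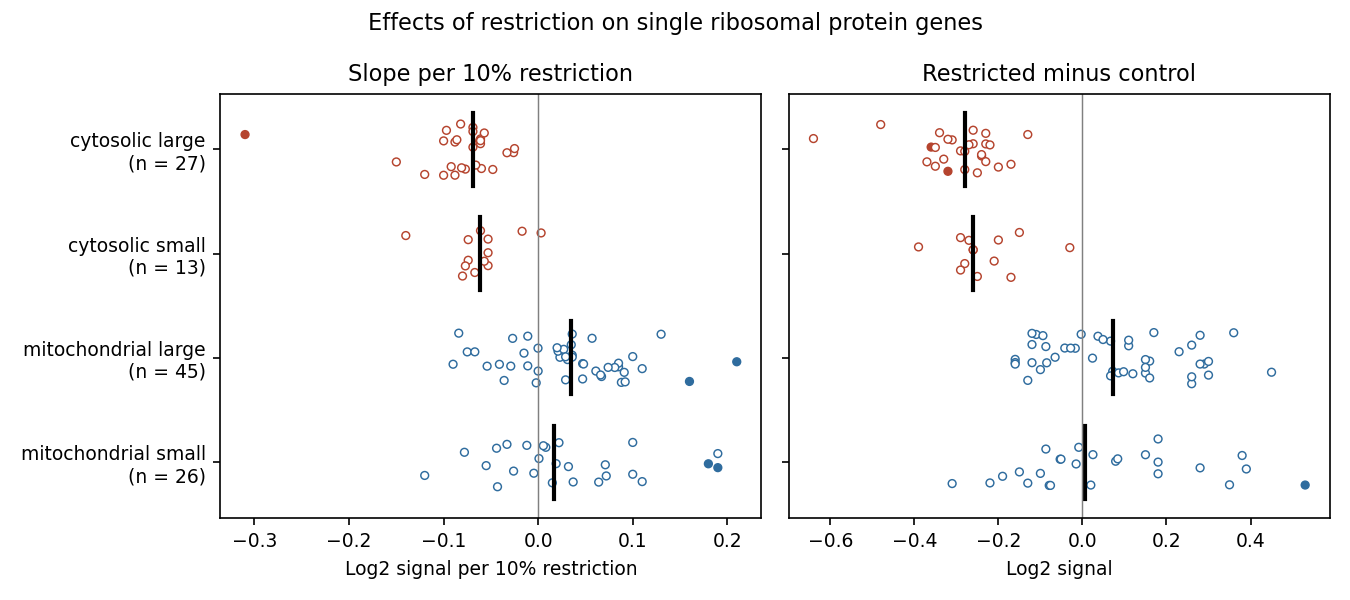
Fitted effect of restriction for each of the 111 tested members (1 point per gene) in 4 classes: the slope of log2 signal per 10% restriction over both durations (left) and the difference in log2 signal between restricted and control pools (right). Filled points passed limma's adjusted p of 0.05 and black bars are medians; the 27 large and 13 small subunit genes of the cytosolic set lie below 0 on the right.

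The slope of log2 signal against the restriction level, per 10% and over both durations, asks for a graded response rather than a difference from control. It was below 0 for 39 of 40 cytosolic members, beside 54.6% of all, with a median of -0.069 beside -0.011. Of these, 1 fell past limma's adjusted threshold (3.69% of all tested probe sets) and 6 of 40 were lower at an unadjusted p under 0.05 (15.9% of all), shares close to those of the array. The mitochondrial median was 0.029, with 24 of 71 below 0. In that set 4 rose past the adjusted threshold (5.71% of all) and 0 fell. At an unadjusted p under 0.05, 13 of 71 mitochondrial members were higher (14.3% of all) and 3 lower. Centring each chip on its median changed the calls over all probe sets from 544 higher and 351 lower to 574 and 146. With chips centred, the cytosolic median slope was -0.023, with 35 of 40 below 0, and the mitochondrial one 0.074, with 8 of 71 below 0, beside 0.034 and 37.4% for all. Leaving out 1 pool moved the cytosolic median between -0.12 (without the 30% pool at 1 month) and -0.036 (without the control pool at 1 week).

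Rpl39, a small protein of the large subunit that lines the exit tunnel, was the cytosolic member that fell with restriction. Tested cytosolic members other than Rpl39 and the ribosomal protein-like genes had mean signals from 953 (Rpl21) to 5249.9 (Rps29). Rpl39 itself had 39.4, not far above the filter at 22.8. Its log2 signal (1367934_at) was 6.29, 5.51, 5.25, 5.03 and 4.45 from control to 30% at 1 week, and 5.07, 5.12, 5.16, 5.04 and 4.79 at 1 month. The control pool at 1 week thus stood apart from the 9 others, and no such gradient was seen at 1 month. The slope was -0.31 ± 0.087 (SE; limma adjusted p = 0.0468) over both durations and -0.53 ± 0.088 (limma adjusted p = 0.0446) at 1 week, beside -0.098 at 1 month (limma adjusted p = 0.647). Its chips disagreed where the signal was low: against the control, the 30% pool at 1 week gave -2.81 on chip 1 and -0.87 on chip 2, and the 20% pool at 1 month -0.84 and 0.78. The call over both durations remained without the 30% or the 10% pool at 1 month, where 6 and 2 cytosolic members in all passed (854 and 1008 of all 9520 probe sets as lower, in place of 351), and was lost without any other pool. The control pool at 1 week is also the one with the highest pancreas signal, and with both pools of high pancreas signal left out 0 cytosolic members passed.

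The other cytosolic slopes formed a narrow band. In the large subunit the lowest after Rpl39 were Rpl35a (-0.15), Rpl27 (-0.12) and Rpl18 (-0.10), with limma adjusted p of 0.154, 0.143 and 0.134, and the highest were Rpl7 (-0.025), Rpl41 (-0.026), Rpl7a (-0.033) and Rpl23 (-0.048). In the small subunit the lowest were Rps15 (-0.14), Rps15a (-0.080), Rps9 (-0.077) and Rps24 (-0.074). The highest there were Rps4y2 (0.0031), Rps29 (-0.017), Rps3a (-0.053) and Rps6 (-0.053), the last known as the target of S6 kinase. Rpl35a, in which loss of a gene copy causes an inherited anaemia in people, had log2 signals of 11.14, 10.84, 10.48, 10.76 and 10.34 at 1 week and 11.38, 11.20, 10.66, 10.82 and 11.09 at 1 month, so that the control pool was the highest at each duration. Among the pair of highest mean signal in each subunit, Rpl7a differed by -0.13 between restricted and control pools, Rpl23 by -0.23, Rps29 by -0.15 and Rps23 by -0.26, none past limma's adjusted threshold.

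Mrps7, Mrps9, Mrpl15 and Mrpl1 were the mitochondrial members that rose with restriction. Mrps7, with the values above, had a slope of 0.19 ± 0.043 (SE; limma adjusted p = 0.0239). Mrps9 (1373002_at), another protein of the small subunit, had a log2 signal of 5.90, 6.13, 6.10, 6.29 and 6.54 at 1 week and 6.17, 6.40, 6.51, 6.76 and 6.65 at 1 month, and a slope of 0.18 ± 0.038 (limma adjusted p = 0.0200). At each duration its control pool was the lowest.

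Mrpl15 (1398891_at), of the large subunit, had 8.19, 8.23, 8.39, 8.66 and 8.71 at 1 week and 8.25, 8.49, 8.79, 8.66 and 8.74 at 1 month. Its slope was 0.16 ± 0.038 (SE; limma adjusted p = 0.0258), and it was higher than control in 8 of 8 pools. Mrpl1 (1389125_at), also of the large subunit, had 6.81, 6.61, 6.78, 6.97 and 7.28 at 1 week and 6.50, 7.19, 7.31, 7.28 and 7.44 at 1 month. At 1 week its 5% and 10% pools lay below the control, and at 1 month every restricted pool lay above it. Its slope was 0.21 ± 0.055 (limma adjusted p = 0.0370), with 6 of 8 pools higher. The count of 4 became 8 without the 10% pool at 1 month and 9 without the 30% pool at 1 month, where 913 and 787 of all 9520 passed as higher in place of 544. It became 2 without the 5% and 1 without the 20% pool at 1 week, and 0 without the 30% pool at 1 week or without either control pool.

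**Figure D3:**
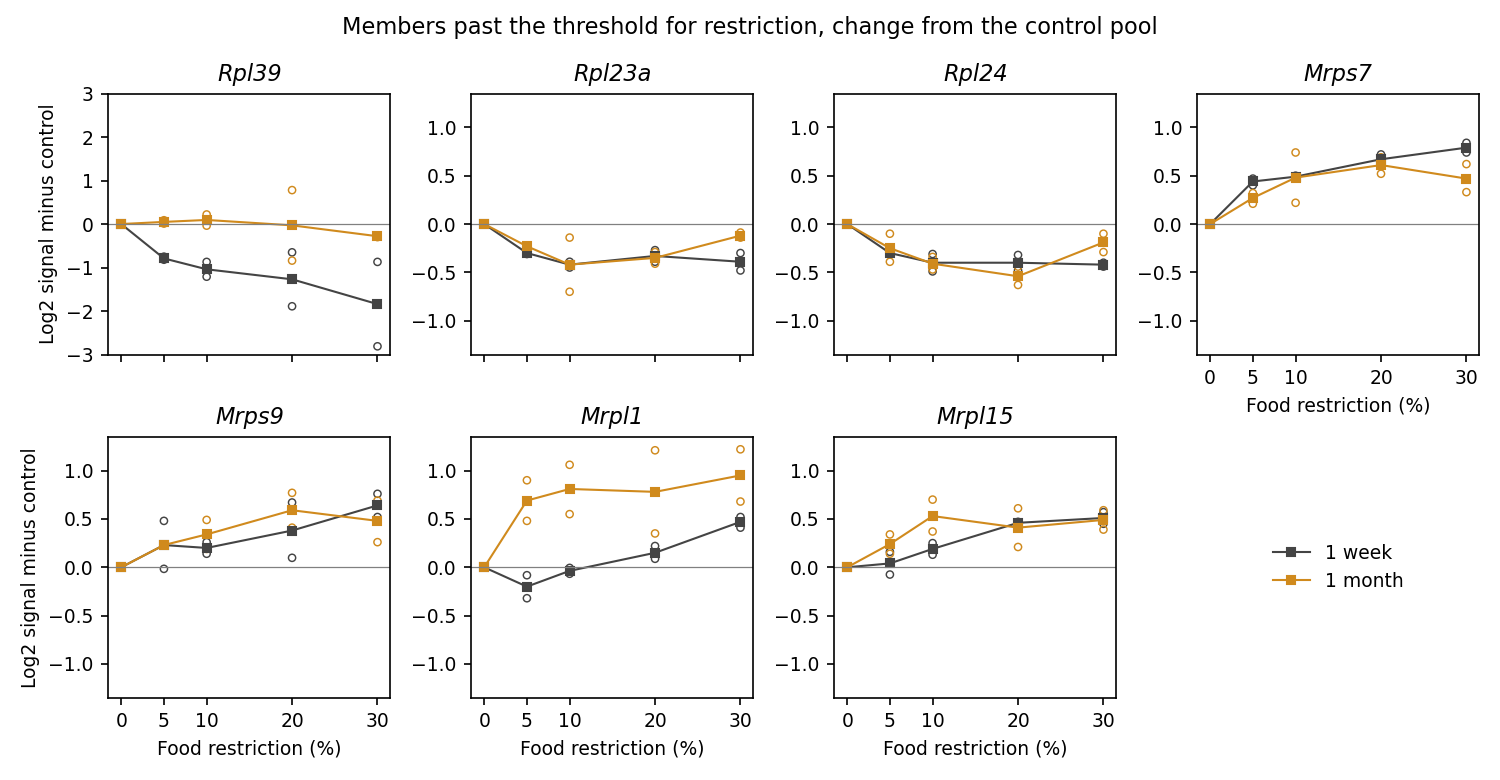
Difference in log2 signal from the control pool of the same duration (vertical axis) by food restriction in percent (horizontal axis) for the 7 members past limma's adjusted p of 0.05 in a restriction comparison. Squares and lines are pool means, open circles single chips against the control chip of the same number, grey for 1 week and orange for 1 month; Rpl39 has its own, wider axis, and its chips in the 30% pool at 1 week lie at -2.81 and -0.87.

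Further mitochondrial members came close to the threshold or moved the other way. Mrpl32 had a slope of 0.13 (limma adjusted p = 0.0527), Mrps35 of 0.19 (0.0572) and Mrpl39 of 0.11 (0.129). On the other side, Mrps14 had -0.12 (limma adjusted p = 0.0672) and lay below the control in 8 of 8 pools, with a log2 signal of 7.51, 7.32, 7.26, 7.35 and 7.19 at 1 week and 7.91, 7.68, 7.51, 7.59 and 7.31 at 1 month. Mrpl48 (-0.090), Mrpl34 (-0.084), Mrpl49 (-0.075) and Mrpl54 (-0.067) had the lowest slopes of the large subunit. In the small subunit Mrps2 (-0.078), Mrps33 (-0.055) and Mrps21 (-0.044) came next after Mrps14. The mitochondrial set thus held members of both signs in both subunits. Of 12 members read by several probe sets, 9 had more than 1 tested, and Mrpl51 alone among them had slopes of both signs. Second probe sets of Mrpl49 (-0.16, limma adjusted p = 0.0388) and Mrpl50 (0.12, limma adjusted p = 0.0456) passed where the one in use did not.

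The durations were compared through the difference of their slopes. The median cytosolic slope was -0.091 at 1 week, with 40 of 40 below 0 (53.5% of all), and -0.058 at 1 month, with 38 of 40 below 0 (54.1% of all). Leaving out 1 pool moved the cytosolic median at 1 week between -0.13 (without the 30% pool) and -0.017 (without the control). Without both pools of high pancreas signal, which include that control, it was 0.034, with 13 of 40 below 0 (54.7% of all). With the lymphocyte mean in the fit it was 0.0071, with 17 of 40 below 0 (49.5% of all). At 1 month, leaving out 1 pool moved the cytosolic median between -0.20 (without the 30% pool) and -0.018 (without the control). It was -0.025 without the 20% and -0.039 without the 5% pool. The mitochondrial medians were 0.034 and 0.020. Past limma's adjusted threshold at 1 week were Rpl39 (0.0735% of all tested probe sets fell) and 0 mitochondrial members (0.221% rose), with 10 of these higher and 2 lower at an unadjusted p under 0.05 (10.5% and 9.61% of all). At 1 month limma called 0 of either set (0.0315% of all fell, 0.0945% rose), with 0 cytosolic members and 5 higher and 1 lower mitochondrial member at an unadjusted p under 0.05 (6.69% and 6.50% of all). The difference of the slopes passed for 0 members and 0 of all 9520 probe sets in limma, where 1 cytosolic and 1 mitochondrial member were higher at an unadjusted p under 0.05 (1.31% of all were higher and 1.65% lower). Its median was 0.037 for the cytosolic set, a sign that turned in several other fits, and -0.022 for the mitochondrial set.

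The step from the control pools to the trend of the restricted ones was fitted as a separate term. A value below 0 places the controls above that trend. The median was -0.24 for the cytosolic set, with 40 of 40 below 0 beside 50.2% of all, and 0.019 for the mitochondrial set. In limma 0 members passed the adjusted threshold (0.315% of all were higher and 0.0105% lower), and 3 cytosolic members, all of the large subunit, were lower at an unadjusted p under 0.05 (3.84% of all), while 1 mitochondrial member was higher (7.50% of all).

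Between durations, pools of 1 month had more signal than those of 1 week in both sets, by a median of 0.20 for cytosolic and 0.16 for mitochondrial members, beside 0.068 for all. Rising past limma's adjusted threshold were 0 cytosolic and 7 mitochondrial members (3.31% of all): Mrps7 (0.51), Mrpl34 (0.42), Mrps34 (0.38), Mrpl46 (0.34), Mrpl42 (0.32), Mrpl33 (0.31) and Mrps16 (0.25). At an unadjusted p under 0.05, 17 cytosolic members were higher (16.3% of all). This comparison rests on how the chips of each duration were scaled. The 7 became 0 with each chip centred on its median and 2 with quantile normalization, where 16 and 69 of all 9520 probe sets passed as higher. On chip 1 alone 61 passed, beside 3986 of all. On chip 2 alone the direction turned: the medians were -0.066 for the cytosolic and -0.089 for the mitochondrial set, and 0 mitochondrial members passed as higher and 7 as lower, beside 27 and 1548 of all. The 7 became 0 without the 20% pool at 1 month or the 30% pool at 1 week, and 1 to 4 without the 20%, 10%, 5% or control pool at 1 week or the 5% or control pool at 1 month.

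Lymphocyte marker signal and the cytosolic set were both lower in most restricted pools, and they ranked the pools in a similar but not identical order. The control pools and the 5% pool at 1 month were the highest in both. Of 24 listed markers 14 were measured and 10 tested, and their mean log2 signal was 6.90, 5.97, 5.11, 5.43 and 3.16 from control to 30% at 1 week and 6.90, 6.85, 3.28, 3.27 and 5.94 at 1 month. The 5% pool at 1 month, where cytosolic members did not stand below the control, was the restricted pool of highest lymphocyte signal. The pool of lowest cytosolic mean (10.43), at 10% and 1 week, had a lymphocyte mean of 5.11. The pool of lowest lymphocyte mean (3.16), at 30% and 1 week, had the next lowest cytosolic mean, 10.47. The 5% pool at 1 week and the 30% pool at 1 month had similar lymphocyte means and cytosolic means of 10.62 and 10.84, but chips of those durations were scaled apart. None of the 14 lay at 0 in any pool; the T cell genes Cd3g and Cd3e ranged from 3.88 to 9.14 and from 2.44 to 6.76, and the B cell gene Cd79b from 0.57 to 8.10. In limma 1 of the 10 fell by slope, Cd4 (-0.19, adjusted p = 0.0477), beside 3.69% of all tested probe sets. Cd4 ranged only from 5.76 to 6.60 over the pools, a narrow span beside those of Cd3g, Cd3e and Cd79b. The median slope of the list was -0.75. Markers of proliferating cells (14 of 16 measured) had means of 5.49, 5.04, 4.84, 4.80 and 4.46 at 1 week and 5.39, 5.43, 4.14, 4.30 and 4.82 at 1 month, and their part in the result was not tested.

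Macrophage and adipocyte markers were read from the same fit of restricted against control. Of 14 listed macrophage markers 9 were measured, between 5.46 and 11.45 in log2 signal in every pool. Of these 3 fell (1.60% of all tested probe sets): Aif1 (-1.11, limma adjusted p = 0.0394), the lysozyme gene Lyz2 (-1.08, 0.0491) and Tyrobp (-0.89, 0.0178). Cd14 went the other way (0.16, limma adjusted p = 0.558). By slope over both durations Cd14 rose (0.16, limma adjusted p = 0.0422) and Aif1 fell (-0.40, 0.0365). The mean of the 9 macrophage markers was 8.21, 7.97, 8.09, 7.92 and 7.76 from control to 30% at 1 week and 8.74, 8.07, 7.85, 7.89 and 8.12 at 1 month. The control pool was thus the highest at each duration, as it was for 14.8% of all tested probe sets. Of the 9 measured adipocyte markers, between 6.95 and 12.76 in every pool, 4 rose (4.34% of all tested probe sets). These were Pparg (1.07, limma adjusted p = 0.00821), the master regulator of fat cells, Plin4 (0.85, 0.0354) and the lipases Pnpla2 (0.77, 0.0277) and Lipe (0.60, 0.0182). The mean of the 9 adipocyte markers was 9.62, 9.96, 10.04, 10.03 and 10.09 at 1 week and 9.75, 10.16, 10.39, 10.30 and 10.07 at 1 month. The control pool was the lowest at each duration, as it was for 15.1% of all tested probe sets. The part of these cell types in the results was not tested.

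**Figure D4:**
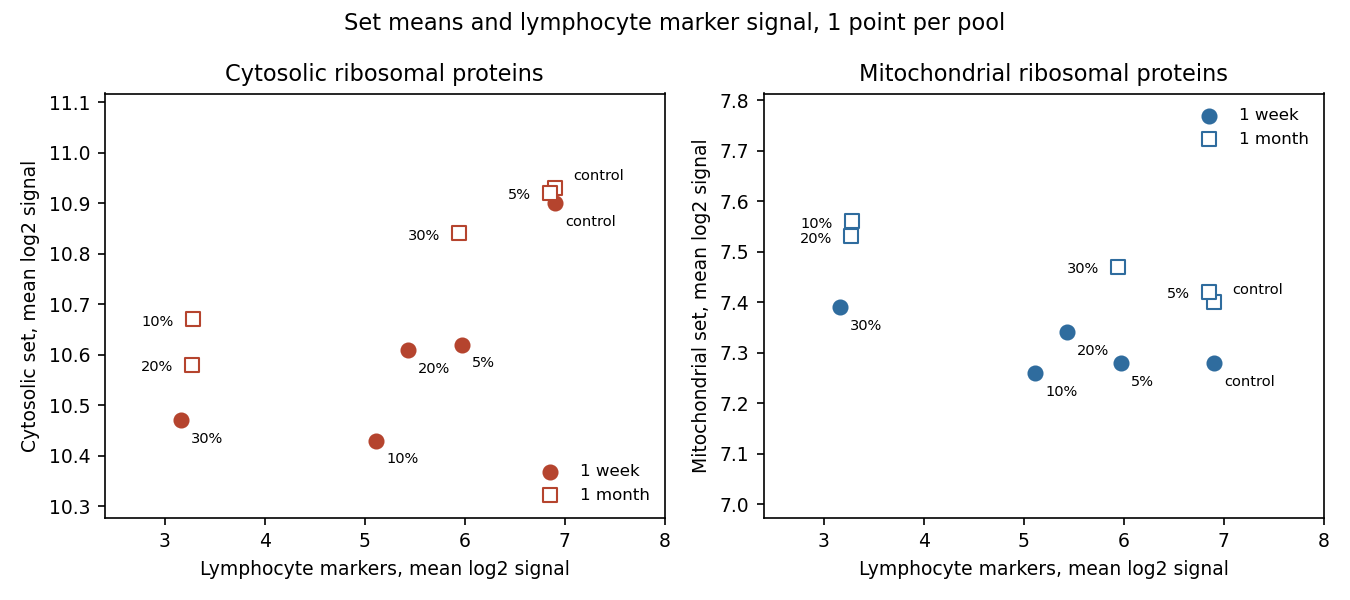
Mean log2 signal of the 40 cytosolic members (left) and the 71 mitochondrial members (right) against the mean log2 signal of 14 lymphocyte markers, 1 point per pool, labelled by restriction (filled, 1 week; open, 1 month). Both vertical axes span the same width; the control pools and the 5% pool at 1 month lie together at the upper right of the left panel.

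With the lymphocyte mean as a term in the fit, the median cytosolic slope was 0.0041, with 18 of 40 below 0 (51.6% of all), and the mitochondrial one 0.013. Restricted against control then had a cytosolic median of -0.12, with 40 of 40 below 0 beside 50.3% of all, and limma called 0 members (2 lower at an unadjusted p under 0.05, beside 4.93% of all). The mitochondrial median for that comparison was -0.011, and limma called 0 members, with 1 higher (7.72% of all) and 2 lower at an unadjusted p under 0.05. The lymphocyte mean was itself lower in every restricted pool than in its control, so these fits cannot separate lymphocytes from restriction. The part of lymphocytes in the results was not tested. When both pools with pancreas signal were left out, the median cytosolic slope was -0.042, with 36 of 40 below 0 (55.8% of all), and restricted against control had a median of -0.18, with 39 of 40 below 0 (57.2% of all). In those 8 pools limma called 0 members of either set in either comparison. At an unadjusted p under 0.05, the slope gave 0 cytosolic members and 5 higher and 1 lower mitochondrial member (7.85% and 6.92% of all). Restricted against control gave 1 cytosolic member lower and 6 higher and 2 lower mitochondrial members (7.55% and 6.05% of all).

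Genes of neighbouring function outside the naming rule were read from the same fits, in which 5.71% of all tested probe sets rose and 3.69% fell by slope, and 1.60% fell in restricted against control. Of the cytosolic ribosomal proteins with other names 3 were tested, with slopes of -0.10 for Rack1, -0.046 for Rplp0 and -0.039 for Rpsa (limma adjusted p of 0.232, 0.499 and 0.489). Of 44 tested ribosome biogenesis genes, 1 fell with restriction, Nhp2 (-0.18, limma adjusted p = 0.0445), a part of the particles that modify ribosomal RNA, and 0 rose; the median slope was -0.057. In restricted against control Nop56 (-0.61, limma adjusted p = 0.0407) and Nolc1 (-0.46, limma adjusted p = 0.0458), which work in the nucleolus where ribosomes are built, fell. The mean log2 signal of the 47 measured biogenesis genes ran from 6.14 to 6.44 over the pools.

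Of 10 tested mitoribosome genes with other names, 1 rose, Ptcd1 (0.21, limma adjusted p = 0.0461), and the median slope was 0.025. Of 15 tested genes of mitochondrial translation and transcription, Mtfmt, which formylates the initiator tRNA, rose (0.21, limma adjusted p = 0.0416) and Slirp, which stabilises mitochondrial messengers, fell (-0.16, limma adjusted p = 0.0306). Of 21 tested genes of translation control by nutrients, 3 rose and 0 fell. These were Pdcd4 (0.28, limma adjusted p = 0.0259), an inhibitor of the helicase eIF4A, and Eif4ebp1 (0.25, 0.0133) and Eif4ebp2 (0.14, 0.0453), which hold the cap-binding factor eIF4E. The median slope of that list was 0.029.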

How the data were processed

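Labelled RNA of 10 pools was measured on 20 one-colour Affymetrix Rat Expression Set 230 chips. The authors deposited intensity values on a linear scale, which are MAS5 signals by the submitters' processing notes. The trimmed mean of a chip showed that the sets were scaled apart: 77.7 and 112 for chips 1 and 2 at 1 week, and 98.4 to 98.5 and 98.1 at 1 month. This bears on comparisons between durations, and at 1 week on the sign rule, which sets chip 1 of a pool against chip 2 of another: with chips centred first, 1107 probe sets were lower and 885 higher at 30% in place of 1020 and 722, beside 747 and 507 in place of 746 and 507 at 1 month.

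Of 15923 probe sets, 57 array controls were left out. Signals under 1 were set to 1 (0.996% to 3.87% of a chip's values), log2 was taken and the 2 chips of a pool were averaged. Testing kept 9520 probe sets, those with a mean log2 signal from the 40th percentile up (a signal of 22.8). Gene names came from the platform annotation, updated by gene ID. A further 33 probe sets that joined a ribosomal symbol with other symbols were not named, and signal from near-identical gene copies cannot be separated from that of a named gene.

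Pool means were fitted with limma 3.58.1 in R 4.3.3 (lmFit, eBayes with trend, two-sided, Benjamini-Hochberg over all tested probe sets, threshold 0.05), with 7 residual degrees of freedom for the common slope and 6 with 1 slope per duration. Every adjusted p comes from these fits. The steps were tested on simulated data. Each group was 1 pool, so single pools were compared with no p. The number of arrays limits the precision.

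Members and lists were chosen with earlier results of these data known. Named were, in each subunit, the 4 lowest and 4 highest slopes, the 2 of highest mean signal and up to 6 members past the threshold per comparison, and of related lists up to 4 genes past it or the 2 of largest slope. Mrpl17 and Mrps17, which this rule took for their mean signal, are not described. Alternatives were chip centring, quantile normalization, an offset of 16, no filter or the 60th percentile, each pool or chip number left out, the lymphocyte mean as covariate, the 2 pools with pancreas genes left out, and all chips with the chip number as block. Chosen after seeing the data were the cytosolic set without ribosomal protein-like genes and chips centred before the sign rule.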

Additional observations from a re-analysis of the deposited data

How the results depend on the processing

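The cytosolic medians for restricted against control stayed below 0 in every alternative, and the mitochondrial median there turned to -0.011 with the lymphocyte mean in the fit. Counts past limma's adjusted threshold were less stable. For restricted against control, 2 cytosolic members lower became 0 with chip centring, the lymphocyte mean, no filter or without the 2 pools with pancreas genes, and 1 with quantile normalization; 1 mitochondrial member higher became 0 with the lymphocyte mean or without the pancreas pools and 2 with quantile normalization. For the slope over both durations, 1 cytosolic member lower became 0 with chip centring, quantile normalization, an offset of 16, no filter, the 60th percentile filter, the lymphocyte mean or without the pancreas pools, and 4 mitochondrial members higher became 0 with the last pair; the cytosolic median turned to 0.0041 with the lymphocyte mean. For the slope at 1 week, 1 cytosolic member lower became 0 under the same alternatives, and its median turned to 0.0071 with the lymphocyte mean and 0.034 without the pancreas pools. For 1 month minus 1 week, 7 mitochondrial members higher became 12 with the 60th percentile filter, 15 with the lymphocyte mean, 2 with quantile normalization, and 0 with chip centring or without the pancreas pools; 0 cytosolic members became 12 with the lymphocyte mean. The median difference of slopes of the cytosolic set, 0.037, turned to -0.0032 with chip centring, -0.015 with quantile normalization, -0.017 with the lymphocyte mean and -0.087 without the pancreas pools, to -0.12 without the 30% pool at 1 month, -0.037 without the control pool at 1 week and -7.56e-04 without the chips numbered 1; that of the mitochondrial set turned to 0.043 without the 30% pool at 1 month. With 1 pool or chip number left out these medians ranged from -0.12 to 0.075 and -0.043 to 0.043. The mitochondrial median of the control step turned to -0.013 with the lymphocyte mean and -0.022, -0.0053 and -0.0057 without the 10%, 30% or control pool at 1 month (highest 0.090). Leaving out 1 pool or chip number gave 0 to 21 cytosolic members lower and 0 to 9 mitochondrial higher (0 to 1 lower) in restricted against control, 0 to 6 and 0 to 9 (0 to 1 lower) for the slope over both durations, 0 to 1 and 0 to 1 for the slope at 1 week, and for 1 month minus 1 week 0 to 37 cytosolic members higher (0 to 1 lower) and 0 to 61 mitochondrial (0 to 7 lower), with medians from -0.066 to 0.46 and -0.089 to 0.42. With the median chip difference of each pool removed, chips of a number deviated together only weakly between pools. The r of chip 1 minus chip 2 ran from 0.016 to 0.18 at 1 week and -0.087 to 0.22 at 1 month. The numbers were therefore not taken as a pairing in the main fits. Single-chip differences were still read against the control chip of the same number. With the chip number as replicate block and the pool as a random effect (correlation 0.358), restricted against control gave 18 cytosolic members lower and 6 mitochondrial higher (797 and 926 of all 9520 probe sets). The slope over both durations gave 2 and 8 (834 and 895), and the slope at 1 week 0 and 3 (251 and 456). For 1 month minus 1 week it gave 38 and 64 higher (4441). The median of all probe sets for that comparison was 0.33 in this fit, as on chip 1 alone, against 0.068 in the main fit and -0.20 on chip 2 alone. This count thus follows the scaling of chip 1 and is not a duration result over both chips. Over the 20 alternatives of each, the call of Mrps7 for restricted against control held in 14 and those of Rpl24 and Rpl23a in 8 and 6; for the slope, Mrps7 and Mrps9 held in 14, Mrpl15 in 13 and Mrpl1 in 8, and Rpl39 in 3 of 19. The causes were not tested.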
